A study of Rattus norvegicus with 6 samples.

Results

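The genes described here encode the class II molecules of the rat major histocompatibility complex (MHC) and the proteins that prepare peptides for presentation. They were taken by name: RT1-Ba, RT1-Bb, RT1-Da, RT1-Db1, Cd74, Ciita, B2m, Tap1, Tap2 and Psmb8. All 10 genes had a probe on the array, with 12 probes among the 30367 probes tested, and they make up 10 of 26903 gene names. The naming rule itself uses no measured value.

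MHC class II molecules are pairs of an alpha and a beta chain that carry peptides from engulfed proteins to the surface of macrophages, dendritic cells and B cells, where helper T cells read them. In the rat, RT1-Ba and RT1-Bb encode the chains of the RT1.B molecule, RT1-Da and RT1-Db1 those of RT1.D, and Cd74 encodes the invariant chain that blocks the peptide groove until the endosome is reached. Ciita is the co-activator on which transcription of these genes depends. MHC class I molecules, which nearly all cells carry, use B2m as their light chain, the transporter subunits Tap1 and Tap2 to bring peptides into the endoplasmic reticulum, and Psmb8, a catalytic subunit of the immunoproteasome, to cut them.

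The comparison asked how an immune challenge in the neonatal period changes ovarian gene expression. Female Wistar pups received lipopolysaccharide (LPS, from Salmonella enterica serotype enteritidis) at 0.05 mg/kg, or an equal volume of saline, intraperitoneally on postnatal days (PND) 3 and 5, and ovaries were collected on PND 7. RNA from 3 LPS-treated and 3 saline-treated samples was hybridised to 6 single-colour Agilent arrays. Both groups had the same strain and age. No genotype is recorded for the animals, so whether it differed between them is not known. Whole litters were allocated to a treatment, so litter and treatment cannot be told apart. By the array positions, all 3 saline arrays and LPS replicate 1 lay in 1 slide row and LPS replicates 2 and 3 in the other. Slide row and treatment are therefore also confounded in part. The methods state fewer litters than arrays per treatment and the labels do not tie arrays to litters, so the p-values measure only the spread between these samples. In whole ovary, fewer cells of a type and less RNA per cell cannot be told apart.

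Levels are given as the log2 of a probe's signal minus the 75th percentile of its array, so that 0 is the signal of a probe at that percentile. The percentile itself lay between 2379 and 5497 signal units and from 66.3% to 76.0% of spots were well above background on each array. Oocyte and granulosa cell markers were present on all 6 arrays. The libraries labelled saline replicates 2 and 3 stood apart: the summed signal of 6 adrenal cortex markers was 141 and 195 times the 75th percentile on these arrays, against 1.35 on saline replicate 1 and 1.09 to 1.68 on the LPS arrays. The sum of 7 adrenal medulla markers was 86.2 and 56.1 on the same pair, 5.94 on saline replicate 1 and 3.12 to 5.51 on the LPS arrays. Values without these 2 arrays are given beside the results that turn on them. Such a fit keeps 1 saline array, which is assumed to vary like the LPS arrays, so its p-values and call counts are not a match for fits with more saline arrays.

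The class II genes are read through short elements close to the start of transcription, and the letters of these elements are shown because the long Y box and the interferon element described here fell in different members. Promoter sequence came from the RefSeq table of the GRCr8 assembly, with 250 bases before and 50 bases after each start, for 9 of the 10 members. Of the 10 members, 7 start on chromosome 20, and the order along it is RT1-Da, RT1-Db1, RT1-Ba, RT1-Bb, Tap2, Psmb8 and Tap1, spread over 153.1 kb. Psmb9, another immunoproteasome subunit gene, starts 457 bases from Tap1 on the opposite strand. All 4 class II chain genes held CTGATTGG, the Y box of class II promoters, which was found in 3.5% of all 33465 promoters of this length. Psmb9 also held CTGATTGG, at 20, past its start. The X box letters AGCAAC stood upstream of CTGATTGG in RT1-Da and RT1-Db1, lay at -71 in Cd74 and at -161 in Tap2, and were found in 14.7% of all promoters. Exact letters alone were counted, so a variant of the X box in RT1-Ba or RT1-Bb would not be marked. RT1-Ba held TGACG, the core of a cyclic AMP element, on both strands as a palindrome, B2m held it at -89, and 21.2% of all promoters held these letters. In the lines below, each on its gene's own strand, capitals mark CTGATTGG, AGCAAC and TGACG on either strand. The windows lie at chr20:4515303-4515382 (plus strand) for RT1-Da, chr20:4560226-4560305 (minus strand) for RT1-Db1, chr20:4576951-4577030 (plus strand) for RT1-Ba and chr20:4604163-4604242 (minus strand) for RT1-Bb.
RT1-Da: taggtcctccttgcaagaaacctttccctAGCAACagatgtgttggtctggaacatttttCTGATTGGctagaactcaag
RT1-Db1: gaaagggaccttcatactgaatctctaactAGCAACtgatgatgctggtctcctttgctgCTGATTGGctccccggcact
RT1-Ba: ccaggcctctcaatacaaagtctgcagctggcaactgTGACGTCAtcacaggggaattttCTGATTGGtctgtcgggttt
RT1-Bb: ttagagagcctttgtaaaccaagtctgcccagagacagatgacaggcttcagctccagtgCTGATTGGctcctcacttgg
The first base of CTGATTGG lay at -52 in RT1-Da, -83 in RT1-Db1, -46 in RT1-Ba and -64 in RT1-Bb, counted from the start of transcription. The letters CTGATTGG and AGCAAC were chosen after the sequences had been read, and CTGATTGG contains the reverse complement of CCAAT.

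The class I pathway members held a different element. The core of the interferon-stimulated response element, a pair of GAAA separated by any 2 bases, was found on either strand in B2m, Tap1, Tap2 and Psmb8, in none of the 5 other members with a promoter, and in 3.92% of all promoters. Capitals mark these letters or their reverse complement in 30 bases of each promoter, read on the gene's own strand. The windows lie at chr3:129549170-129549199 (plus strand) for B2m, chr20:4668645-4668674 (minus strand) for Tap1, chr20:4652318-4652347 (minus strand) for Tap2 and chr20:4657016-4657045 (minus strand) for Psmb8.
B2m: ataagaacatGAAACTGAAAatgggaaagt
Tap1: cggtggctgcTTTCGGTTTCttcttcctct
Tap2: gcagcgaagtGAAAGCGAAAgcccgggacc
Psmb8: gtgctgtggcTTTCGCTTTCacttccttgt
The first base of the element lay at -150 in B2m, -121 in Tap1, -41 in Tap2 and -4 in Psmb8. The other letters searched on both strands were less particular: CCAAT was found in 7 of 9 members and 37.5% of all promoters, the kappa B frame (GGG and CC separated by any 5 bases) in 6 of 9 and 47.3%, and the interferon gamma element TTCNNNGAA in 1 member, Psmb8, and 8.87%. These matches describe the letters and no binding was measured.

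**Figure D1:**
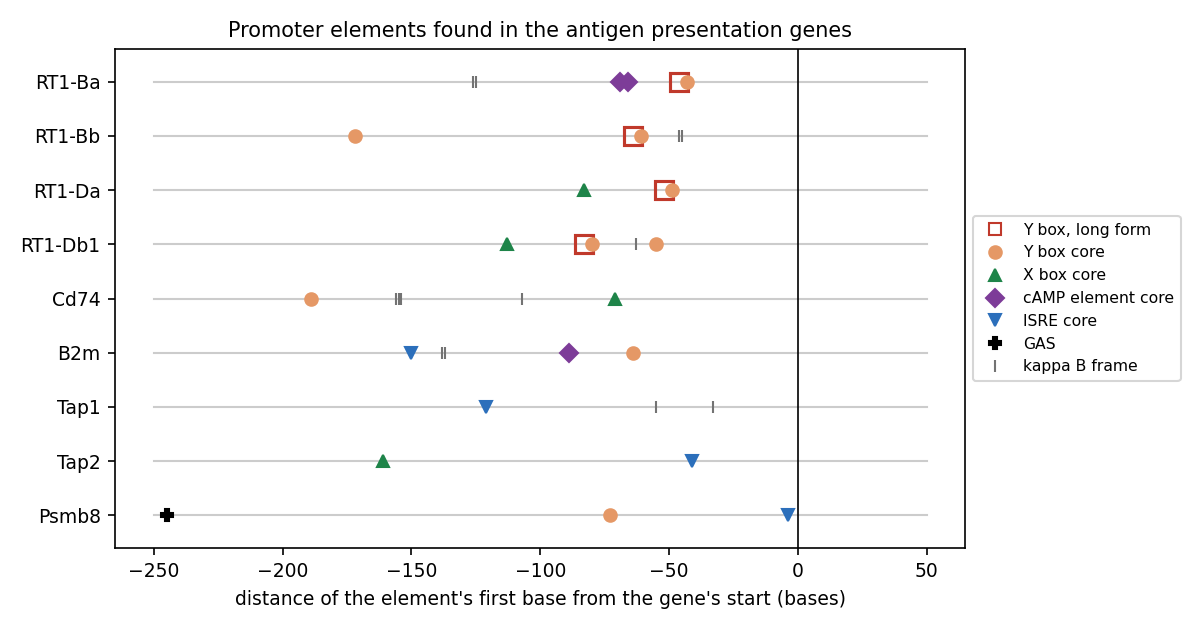
Positions of the searched elements in the promoters of 9 members, with the distance from the start of transcription in bases on the horizontal axis and 1 gene per line. The long form of the Y box lies between -83 and -46 in the 4 class II chain genes, and the core of the interferon-stimulated response element lies between -150 and -4 in B2m, Tap1, Tap2 and Psmb8.

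No member differed between LPS and saline at an adjusted p under 0.05 in the limma fit, where 0% of all gene names did. At an unadjusted p under 0.05, 0 members were higher and 2 were lower, Ciita and RT1-Ba, where 2.22% and 13.7% of all gene names were (15.9% in either direction), and the signals of both genes stayed at background on every array. No member passed the criterion of a 2-fold difference with an unadjusted p under 0.05, which 1.57% of gene names passed. Of the 10 genes, 7 were well above background on all 6 arrays, 2 on none and RT1-Da on 5. The groups did not overlap for 0 members on the higher side and for the same 2 on the lower side, where 4.67% and 18.2% of gene names lay apart (22.9% in all). Among the 7 detected on all arrays the counts were 0 at an unadjusted p under 0.05, 0 at 2-fold and 0 with groups apart, beside 4.06%, 1.00% and 11.2% of gene names so detected, of which 5.30% lay apart higher and 5.88% lower. The median difference over the 10 members was -0.22, beside -0.04 over all gene names, and over the 7 genes above background on all arrays it was -0.06, beside 0.02 over all such gene names. With saline replicates 2 and 3 left out the median over the 10 members was 0.14, and without saline replicate 1 it was -0.43. The plot of member signals by array shows each value.

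**Figure D2:**
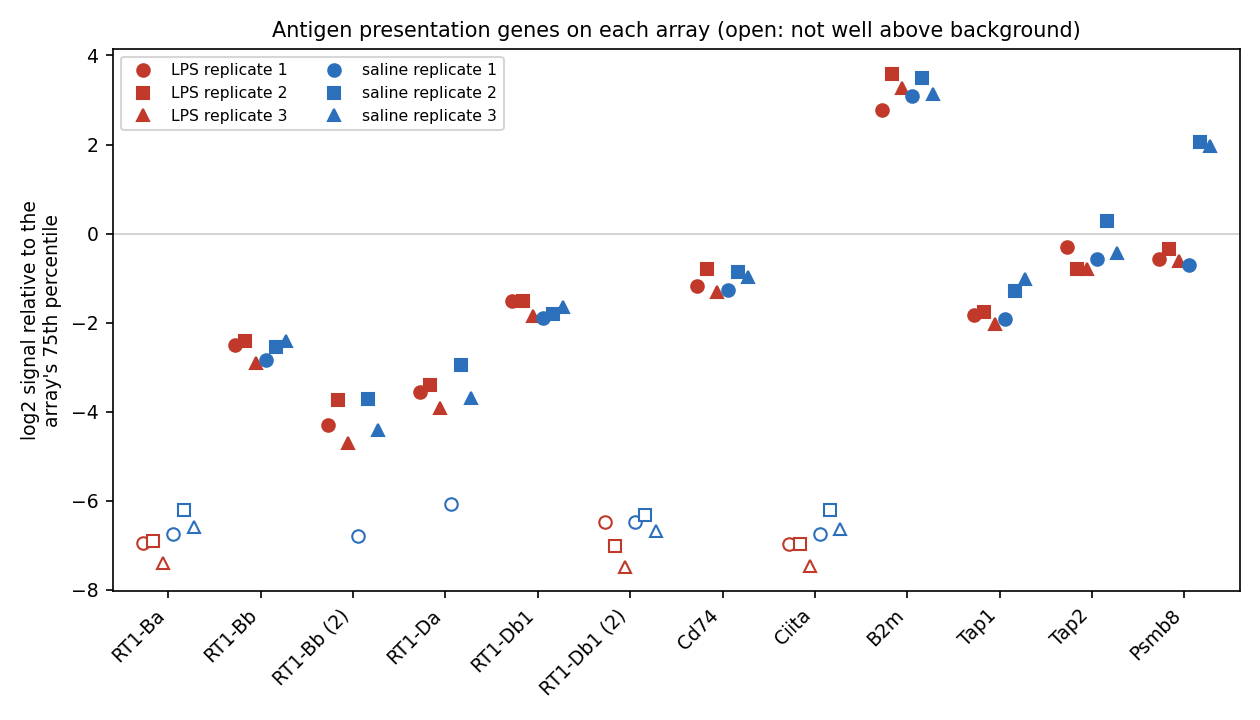
Level of each member probe on the 6 arrays, on a log2 scale set to 0 at its array's 75th percentile, with LPS in red, saline in blue, a symbol for each replicate number and (2) for a second probe. Open symbols are signals not well above background, as on all arrays for RT1-Ba and Ciita and on saline replicate 1 for RT1-Da, and only Psmb8 has a pair of saline arrays, replicates 2 and 3 at 2.06 and 1.97, more than 2 log2 units above the other 4 arrays.

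Of the class II chain genes, RT1-Db1 and RT1-Bb were measured on every array and lay close together in the 2 groups. RT1-Db1, the beta chain of RT1.D, gave -1.51, -1.51 and -1.84 on LPS replicates 1 to 3 and -1.89, -1.81 and -1.65 on saline replicates 1 to 3. The groups overlapped, with means of -1.62 ± 0.19 and -1.78 ± 0.12 (SD, n = 3). The log2 difference, LPS minus saline, was 0.16 (SE 0.18, 95% interval -0.27 to 0.59, limma adjusted p = 0.817). A second RT1-Db1 probe stayed at background throughout.

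RT1-Bb, the beta chain of RT1.B, gave -2.49, -2.40 and -2.90 in the LPS samples and -2.84, -2.56 and -2.41 in the saline samples. The lowest and the highest array of the 6 were both LPS arrays. The difference was 0.00 (SE 0.21, interval -0.51 to 0.51, limma adjusted p = 0.999). A dimmer RT1-Bb probe gave -4.29, -3.73 and -4.69 under LPS and -6.78, -3.72 and -4.41 under saline, where the value of saline replicate 1 was not well above background. Its difference of 0.73 (SE 0.76, limma adjusted p = 0.801) turned to -0.17 without saline replicate 1.

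RT1-Da, the alpha chain of RT1.D, followed the dimmer RT1-Bb probe and not the brighter one. It gave -3.56, -3.41 and -3.92 in the LPS samples and -6.07, -2.95 and -3.69 in saline replicates 1, 2 and 3. Saline replicate 1 was the single array on which it was not well above background, and saline replicate 2 was the highest of the 6. The fitted difference was 0.61 (SE 0.75, interval -1.19 to 2.41, limma adjusted p = 0.850). Without saline replicate 1 it was -0.31 (SE 0.30, adjusted p = 0.661), and with saline replicates 2 and 3 left out it was 2.44, a value that rests on the 1 saline array below background. Of the 30367 probes, 158 were well above background on every array but saline replicate 1, among them the RT1-Da probe and the dimmer RT1-Bb probe. For saline replicate 2 this number was 1044, and for the other 4 arrays it was 67 or fewer. Of the 158 probes, 44 lay at least 2-fold below every other array, the RT1-Da probe and the dimmer RT1-Bb probe among them. Of the 1044 probes of saline replicate 2, 72 did.

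RT1-Ba, the alpha chain of RT1.B, stayed at background on all 6 arrays. Its signals, -6.95, -6.91 and -7.39 under LPS and -6.75, -6.20 and -6.58 under saline, lie where the software places a probe too dim to measure, so no fold is given. The fit gave a difference of -0.58 (SE 0.23, limma unadjusted p = 0.041, adjusted p = 0.287). Ciita, the co-activator of class II transcription, was below background in the same way, at -6.97, -6.98 and -7.47 under LPS and -6.75, -6.22 and -6.64 under saline. Its fitted difference was -0.60 (SE 0.23, limma unadjusted p = 0.037, adjusted p = 0.284). With dim probes left out neither gene is tested. Each was read by a single probe, whose signal was below the level at which a difference between the treatments could be measured here. A probe at background does not set the level of its gene, since RT1-Db1 had such a probe beside a brighter probe measured on every array.

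Cd74, the invariant chain, was measured on every array. It gave -1.17, -0.80 and -1.31 in the LPS samples and -1.26, -0.86 and -0.97 in the saline samples. The LPS mean was -1.09 ± 0.26 and the saline mean was -1.03 ± 0.21 (SD, n = 3). The difference was -0.06 (SE 0.21, interval -0.57 to 0.44, limma adjusted p = 0.974), and with saline replicates 2 and 3 left out it was 0.16. Over all 6 arrays the highest Cd74 signal was 1.42 times the lowest, and for RT1-Bb and RT1-Db1 these ratios were 1.41 and 1.30.

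The class I members B2m, Tap1 and Tap2 also had overlapping groups. B2m, the light chain of class I molecules, gave 2.77, 3.59 and 3.27 under LPS and 3.09, 3.50 and 3.13 under saline. Its difference was -0.03 (SE 0.26, interval -0.65 to 0.58, limma adjusted p = 0.994). LPS replicate 1 was the lowest array and LPS replicate 2 the highest.

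Tap1, a subunit of the peptide transporter, gave -1.82, -1.77 and -2.02 in the LPS samples and -1.93, -1.28 and -1.02 in the saline samples. Saline replicates 2 and 3 were the highest 2 arrays and saline replicate 1 lay within the LPS range. The difference was -0.46 (SE 0.26, interval -1.09 to 0.16, limma adjusted p = 0.472), 0.06 with saline replicates 2 and 3 left out and -0.72 without saline replicate 1 (adjusted p = 0.191). Tap2, its partner, gave -0.30, -0.79 and -0.80 under LPS and -0.58, 0.27 and -0.43 under saline, with a difference of -0.38 (SE 0.28, interval -1.06 to 0.29, limma adjusted p = 0.639). Only saline replicate 2 lay above the LPS range of Tap2, and with saline replicates 2 and 3 left out the difference was -0.05.

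Psmb8, the immunoproteasome subunit, differed more among arrays than the other members measured on all 6. It gave -0.57, -0.34 and -0.61 in the LPS samples and -0.70, 2.06 and 1.97 in saline replicates 1, 2 and 3. The 3 LPS arrays and saline replicate 1 lay close together, while saline replicates 2 and 3 lay 2.71 above saline replicate 1 on average. The difference was -1.62 (SE 0.72, interval -3.33 to 0.10, limma unadjusted p = 0.061, adjusted p = 0.324), and with the replicate number as a block its unadjusted p was 0.047. With saline replicates 2 and 3 left out it was 0.19, and without saline replicate 1 it was -2.52 (SE 0.18, adjusted p = 0.00455). The high Psmb8 signal thus stood on the same 2 arrays as the adrenal markers, and was not seen on the saline array without them. The part of adrenal tissue in the Psmb8 signal was not tested.

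**Figure D3:**
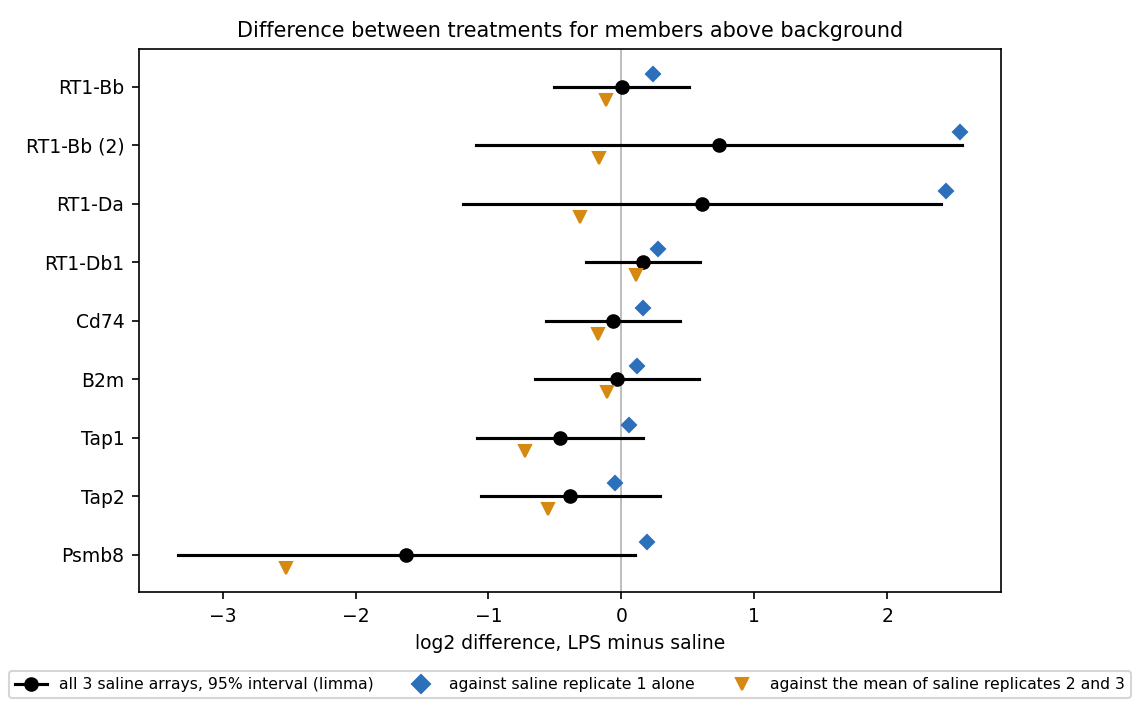
Log2 difference, LPS minus saline, for the 9 member probes above background on some arrays, with (2) for a second probe. Black circles and lines are the limma estimate with its 95% interval over all arrays, blue diamonds use saline replicate 1 alone and orange triangles use the mean of saline replicates 2 and 3. All intervals include 0, and Psmb8 stands at 0.19 against saline replicate 1 and at -2.52 against replicates 2 and 3.

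The other genes of antigen presentation were counted from 5 lists, of which 49 of 54 genes had a probe. After adjustment 0 of the 49 passed in the limma fit. At an unadjusted p under 0.05, 1 was higher and 11 were lower, and 3 of the 11 (RT1-DOa, Ifng and Irf8) were at background on every array. Over all gene names 2.22% were higher and 13.7% lower. Of the 42 list genes above background on all 6 arrays, 1 was higher and 8 were lower, where 1.65% and 2.41% of gene names so detected were. The median difference over the 49 genes was -0.09. With saline replicates 2 and 3 left out, 3 genes were higher and 0 lower, where 2.31% and 3.17% of all gene names were. Without saline replicate 1, 0 were higher and 17 lower, where 4.36% and 18.9% of all gene names were. With the replicate number as a block, 4 were higher and 10 lower, where 3.80% and 16.2% of all gene names were.

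Of the 12 genes that handle class II molecules and their peptides, 1 was higher and 3 were lower at an unadjusted p under 0.05. The shares of all gene names were 2.22% and 13.7%. Of the 9 above background on all 6 arrays, 1 was higher and 2 lower, beside 1.65% and 2.41% of gene names so detected. RT1-DMb, a chain of the peptide exchange factor DM, differed by 0.05 (SE 0.16, limma adjusted p = 0.972), and RT1-DMa, its partner, by -0.30 (SE 0.20, adjusted p = 0.589), or -0.01 with saline replicates 2 and 3 left out. RT1-DOb, a chain of the DM inhibitor DO, differed by -0.10 and RT1-DOa was below background. Ctss, the cathepsin that trims the invariant chain, differed by -0.01 (SE 0.27), and Ifi30, the thiol reductase of endosomes, by -0.32 (SE 0.21), or -0.01 without these 2 arrays. Ctss without them differed by 0.46 (SE 0.24).

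Lysosomal cathepsin D (Ctsd) had groups that did not overlap. It gave 2.65, 2.55 and 2.61 under LPS and 2.95, 3.73 and 3.51 under saline, with a difference of -0.79 (SE 0.23, limma unadjusted p = 0.012, adjusted p = 0.271). It was -0.35 (SE 0.24) with saline replicates 2 and 3 left out. Cathepsin B (Ctsb) differed by -0.39 (SE 0.16, limma adjusted p = 0.298), with every LPS array below every saline array, and by -0.24 with saline replicates 2 and 3 left out. Sppl2a, a membrane protease that clears the stub of the invariant chain, was the one gene of the list that was higher. It gave -1.49, -2.24 and -2.15 under LPS and -2.94, -2.60 and -2.59 under saline, with a difference of 0.75 (SE 0.25, limma adjusted p = 0.271), and 0.98 (SE 0.39) with saline replicates 2 and 3 left out.

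Of the 8 class II transcription genes with a probe, 0 were higher and 0 lower at an unadjusted p under 0.05, where 2.22% and 13.7% of all gene names were. Their median difference was 0.28. With the replicate number as a block 2 were higher, Rfx5 (limma unadjusted p = 0.021, adjusted p = 0.187) and Nfyc (unadjusted p = 0.038, adjusted p = 0.220), where 3.80% of all gene names were. The summed signal of the list was 3.93, 4.27 and 4.45 on LPS replicates 1 to 3 and 3.06, 3.82 and 4.06 on saline replicates 1 to 3. The groups overlapped, and each LPS sum was above that of the saline array with the same number, though no label pairs these arrays. Rfx5, a subunit of the factor that binds the X box, differed by 0.65 (SE 0.34, limma adjusted p = 0.407), and by 0.34 with saline replicates 2 and 3 left out. Nfyc, a subunit of the factor that binds the Y box, gave 0.76, 0.81 and 0.89 under LPS and -0.13, 0.30 and 0.66 under saline. Its groups did not overlap, and its difference of 0.54 (SE 0.23) had a limma unadjusted p of 0.054 and an adjusted p of 0.309, and the difference was 0.95 with saline replicates 2 and 3 left out. Nfya and Nfyb, the other subunits of this factor, differed by 0.33 and -0.11.

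Class I handling genes held 3 genes lower and 0 higher of 12 with a probe, where 13.7% and 2.22% of all gene names were. All 12 were above background on the 6 arrays, and of gene names so detected 2.41% were lower and 1.65% higher. The median difference of the list was -0.43. RT1-A2, a classical class I heavy chain, gave 2.32, 2.42 and 1.74 under LPS and 2.54, 3.09 and 3.26 under saline, with a difference of -0.81 (SE 0.28, limma adjusted p = 0.271), or -0.38 (SE 0.37) with saline replicates 2 and 3 left out. RT1-M3-1, a class I molecule that presents formylated peptides, differed by -0.65 (SE 0.22, adjusted p = 0.271), or -0.22 (SE 0.24) without these 2 arrays. RT1-CE5, the other gene counted as lower, differed by -0.58 with overlapping groups and a limma unadjusted p of 0.043, which was 0.073 with the replicate number as a block. Its difference was -0.20 (SE 0.28) with saline replicates 2 and 3 left out. Class I genes of the rat are near-identical copies and their probes may share transcripts. Tapbp, the bridge between class I molecules and the transporter, differed by -0.40 (SE 0.21, adjusted p = 0.412), or -0.06 without saline replicates 2 and 3, and the chaperones Calr, Canx and Pdia3 differed by 0.11, 0.35 and 0.02. With saline replicates 2 and 3 left out the median of the list was 0.09. Without saline replicate 1 it was -0.67 and 7 genes were lower, where 18.9% of all gene names were.

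In the immunoproteasome list 2 of 8 genes were lower and 0 higher, where 13.7% and 2.22% of all gene names were. All 8 were above background on the 6 arrays, and of gene names so detected 2.41% were lower and 1.65% higher. Psmb9, the subunit whose gene lies beside Tap1, gave 1.75, 1.64 and 1.36 under LPS and 1.78, 2.81 and 2.71 under saline. Saline replicate 1 lay just above LPS replicate 1, and the difference of -0.85 (SE 0.31, limma adjusted p = 0.275) became -0.20 (SE 0.28) with saline replicates 2 and 3 left out. Psmb10, the third subunit, differed by -0.82 (SE 0.37, adjusted p = 0.326) and Psme2, a proteasome activator subunit, by -0.50 (SE 0.19, adjusted p = 0.282). With saline replicates 2 and 3 left out these were -0.09 (SE 0.29) and -0.25 (SE 0.24). The constitutive counterparts Psmb5, Psmb6 and Psmb7 differed by -0.10, -0.03 and 0.07, and each lay within a narrow range over the 6 arrays. All 3 immunoproteasome subunits, Psmb8 among them, were highest on saline replicates 2 and 3.

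Of the 9 genes of interferon gamma control, 0 were higher and 3 lower at an unadjusted p under 0.05, where 2.22% and 13.7% of all gene names were. The lower count includes Ifng and Irf8, both at background. Of the 7 genes above background on all 6 arrays, 0 were higher and 1 lower, beside 1.65% and 2.41% of gene names so detected. With the replicate number as a block Jak1 was also counted as higher, by 0.55 (limma unadjusted p = 0.049, adjusted p = 0.240), where 3.80% of all gene names were higher. Irf1, a transcription factor induced by interferon, gave 0.76, 1.17 and 1.04 under LPS and -0.03, 1.59 and 1.53 under saline. Its difference of -0.04 (SE 0.45, limma adjusted p = 0.995) was 1.02 against saline replicate 1 alone and -0.57 without that array. Ifng itself was at background on every array.

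**Figure D4:**
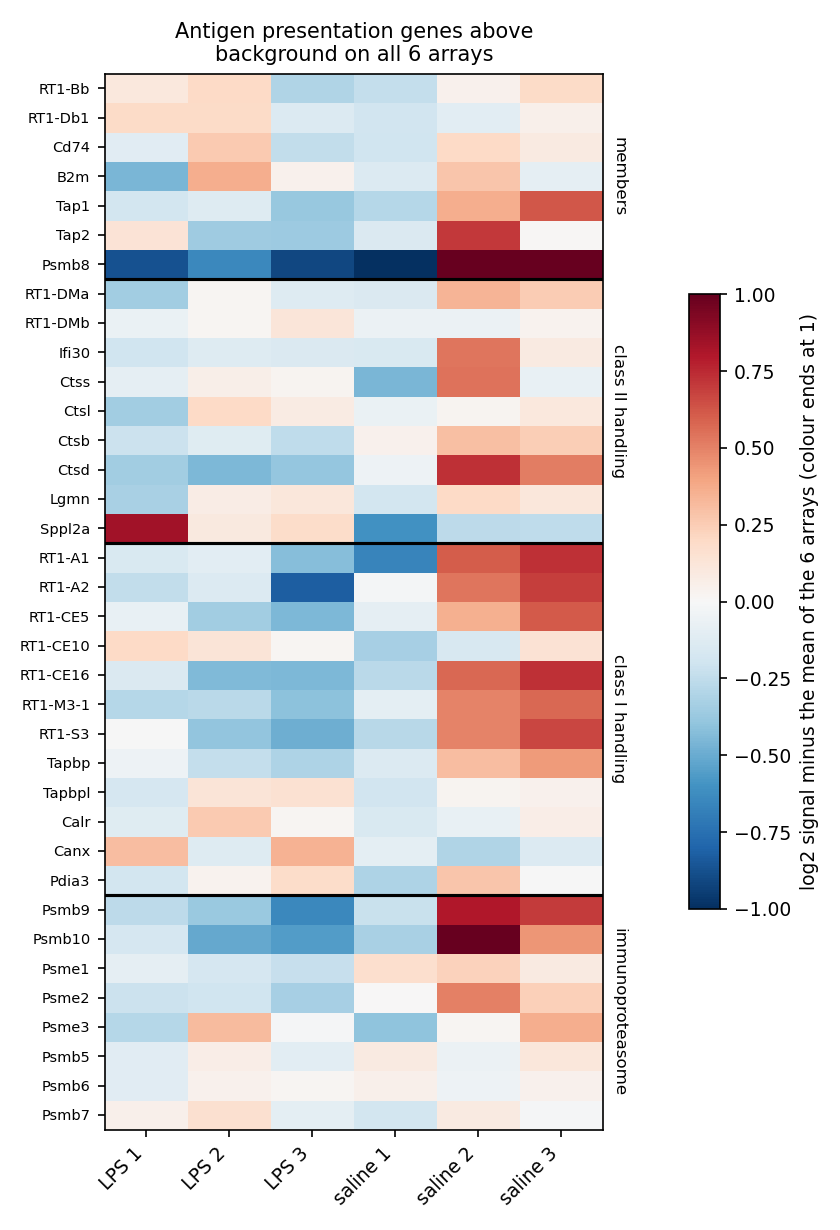
Log2 signal minus the mean of the 6 arrays for 36 antigen presentation genes that every array detected, with a row per gene, a column per array and a colour scale that ends at 1 in either direction. Psmb8, Psmb9, Psmb10 and most class I heavy chain genes are red on saline replicates 2 and 3 and blue or pale on the other 4 arrays, a pattern that RT1-Bb, RT1-Db1 and B2m do not show.

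The order of the arrays was compared with the adrenal markers in view. Saline replicates 2 and 3 were the highest 2 of the 6 arrays for 2 of the 7 members above background on all arrays, Tap1 and Psmb8, where 13.6% of 16295 gene names had this order. They were the highest 2 for 7 of 12 class I handling genes, 3 of 8 immunoproteasome genes, 4 of 9 class II handling genes and 0 of 6 class II transcription genes. Of the endothelium markers 3 of 5 had this order, beside 0 of 10 macrophage, 0 of 7 oocyte and 0 of 7 granulosa cell markers. The part of adrenal tissue or of endothelium in these orders was not tested. Within the slide row that held all 3 saline arrays and LPS replicate 1, the difference of LPS replicate 1 from the saline mean ranged over the 7 members from -1.68 for Psmb8 to 0.27 for RT1-Db1, with a median of -0.14.

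Markers of the cells that carry class II molecules were read beside the members. The summed signal of 12 macrophage markers was 15.4, 12.7 and 12.4 times the 75th percentile under LPS and 13.5, 11.8 and 9.45 under saline. The groups overlapped (two-sided exact permutation p = 0.4, where 0.1 is the smallest p that 3 against 3 arrays allow). Each LPS sum was above that of the saline array with the same number, though no label pairs these arrays. Cx3cr1 weighed unevenly on these sums, at 1.83 on LPS replicate 1 and 1.20 on saline replicate 1, against -1.13 to -0.61 on the other arrays. Sums without Cx3cr1 were not tested. Of these 12 genes 4 were higher at an unadjusted p under 0.05, where 2.22% of all gene names were: Csf1r by 0.52, Adgre1 by 0.81, Mrc1 by 1.19 and Fcgr1a by 0.52, each with a limma adjusted p from 0.271 to 0.286. With saline replicates 2 and 3 left out these differences were 0.46, 1.21, 1.77 and 0.34. The list held 9 positive and 3 negative differences, the negative ones being Cd68 by -0.16, Cd163 by -0.16 and C1qa by -0.07, and its median was 0.29. The 5 markers shared by all leukocytes summed to 2.19, 1.78 and 1.84 under LPS and 1.65, 2.23 and 1.77 under saline. The dendritic cell markers Xcr1, Clec9a, Ccr7 and Cd86 were at background on every array, as were Blk of B cells and Cd3e, Cd2 and Cd5 of T cells. Sums for 8 dendritic cell genes ranged from 0.881 to 1.46, for 6 B cell genes from 3.62 to 8.48 and for 8 T cell genes from 1.32 to 1.89, with overlapping groups in each. The part of any of these cells in the member signals was not tested.

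**Figure D5:**
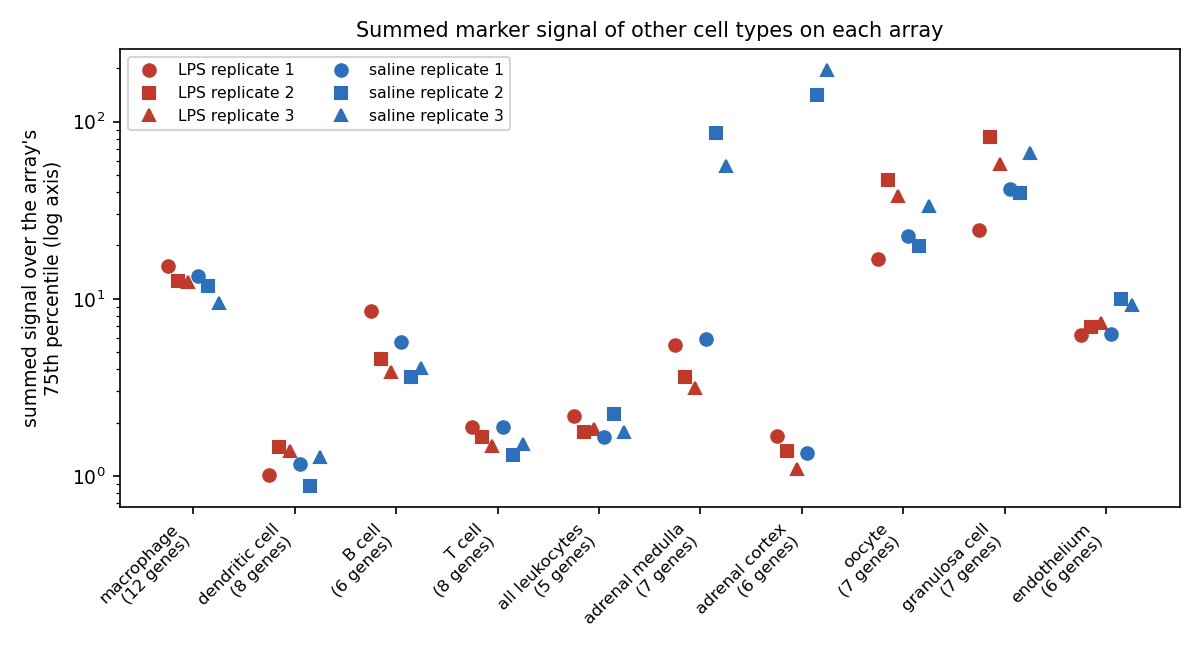
Summed signal of marker gene lists on the 6 arrays, relative to the 75th percentile of each array on a log axis, with LPS in red, saline in blue and a symbol for each replicate number. Adrenal cortex sums of 141 and 195 on saline replicates 2 and 3 stand apart from the other 4 arrays, while macrophage sums lie between 9.45 and 15.4 on all 6.

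The class II genes above background on all arrays, RT1-Bb, RT1-Db1 and Cd74, were averaged into 1 profile over the 6 arrays and compared with 10007 named genes. Among the 5 most alike were Adam15 with a Pearson r of 0.999, Eif4a3 with 0.970, Wrap73 with 0.959 and Crtc2 with 0.924. These values describe 6 arrays that share their scaling, over a profile of narrow range, so they carry no p. Among the other members Tap1 had an r of 0.538 with this profile, Psmb8 0.407, B2m 0.258 and Tap2 0.219.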

How the data were processed

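Ovarian RNA from 6 samples, 3 LPS and 3 saline by the labels, was measured on Agilent single-colour arrays with 62976 spots each. The authors deposited spot intensity values from Feature Extraction 10.5.1.1 with flags, and a table of intensity values that equal the processed signal within 0.497%. Its values are background-subtracted, with a surrogate for spots too dim to measure. The labels' processing notes also name lumi.

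Flagged spots were removed, log2 values of a probe's spots were averaged and the array's 75th percentile subtracted. A probe was well above background on an array where at least 50% of its spots were so flagged. limma 3.58.1 in R 4.3.3 compared the treatments over 30367 probes with at least 2 arrays per group, with Benjamini-Hochberg adjustment, and was tested on simulated data. Probes were named through RefSeq accessions (17998 with a symbol), and the brightest probe stood for a gene. The members and lists were chosen with earlier results of these data known. Named in the text were all members, pathway genes with an unadjusted p under 0.05, no overlap of the groups and signal above background throughout 1 group, a fixed set of pathway genes, and the 5 genes most alike in profile. Other genes named beside these (Nfya, Nfyb, Nfyc, Jak1, RT1-CE5, the chaperones, the constitutive proteasome subunits and marker genes) were chosen after their values were seen. Of the fixed set, Nlrc5 had no probe matched. Some genes that this rule names are not reported here. No label pairs the samples. Deviations from the group means were correlated between arrays that share a replicate number, at 0.298, 0.215 and 0.254 for numbers 1 to 3. Other combinations reached 0.160, for LPS replicate 2 with saline replicate 3. Deviations within a group balance each other, which pushes other combinations down, so these correlations cannot establish a pairing. Fits with the replicate number as a block are given as an alternative that assumes one. The slide row was read from the deposited array positions. Alternatives, 22 in all, covered background correction, scaling, dim and flagged spots, test, block, probe choice and arrays left out. Arrays limit the precision by their number and their signal. Protein and qRT-PCR measurements were not analysed here.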

Additional observations from a re-analysis of the deposited data

How the results depend on the processing

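Over the 22 alternatives no array-wide call at an adjusted p under 0.05 was made except with the slide row as a block (5 probes) and when single arrays were left out (0 to 290 probes, the highest without saline replicate 1). The fit with the replicate number as a block assumes a pairing of the arrays that no label states. In it 0 probes passed after adjustment and 3 members had an unadjusted p under 0.05 in place of 2 (Psmb8 joined at 0.047). The pathway genes were 14 in place of 12 (Rfx5, Nfyc and Jak1 were gained and RT1-CE5 was lost). The 2 members at an unadjusted p under 0.05 were 1 with normexp, 1 with no background correction, 0 with quantile normalization, 0 with no normalization, 0 with dim probes left out, 0 with the methods' t-test, 0 with limma's trend and robust options, 0 with the slide row as a block and 1, RT1-Da, with saline replicates 2 and 3 left out. Single arrays left out gave 0 to 4 members, the highest without saline replicate 1 and 0 without saline replicate 2, saline replicate 3, LPS replicate 2 or LPS replicate 3. The share of all gene names at an unadjusted p under 0.05 changed with the setting too. In the main limma fit 2.22% were higher and 13.7% lower, and without saline replicate 1 4.36% and 18.9%. With the replicate number as a block 3.80% were higher and 16.2% lower. Other shares are not given beside these counts, so the counts are not read as results about the members or pathway genes. The 12 pathway genes were 7 with quantile normalization, 2 with no normalization, 4 with the slide row and 3 without saline replicates 2 and 3. With single arrays left out they were 2 to 17, with 5 without LPS replicate 2, 2 without LPS replicate 3, 2 without saline replicate 2 and 4 without saline replicate 3. Leaving out normalization moved the median of all probes to 0.34 and that of the members to 0.15. The median over the members was 0.14 without saline replicates 2 and 3 and -0.43 to -0.05 with single arrays left out.

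Small differences changed sign. B2m was 0.038 with quantile normalization, 0.34 with none, 0.011 with the percentile over detected probes, 0.12 without saline replicates 2 and 3 and -0.22 to 0.19 with single arrays left out. Cd74 was 0.31 with no normalization, 0.16 without saline replicates 2 and 3 and -0.21 to 0.044 with single arrays left out. RT1-Bb was -0.12 with normexp, -0.11 with no background correction, -0.053 with quantile normalization, -0.051 with the median, -0.0007 with flagged spots kept and -0.12 to 0.15 with single arrays left out. Its dimmer probe was -0.017 with normexp, -0.053 with no background correction and -0.17 to 1.36 with single arrays left out. RT1-Da was -0.016 with no background correction and -0.31 to 1.25 with single arrays left out. RT1-Db1 was -0.17 as the mean of its probes, and its dimmer probe was 0.017 with the slide row. Without saline replicates 2 and 3 Psmb8 was 0.19 and Tap1 0.056. With single arrays left out Psmb8 was -2.52 to -1.14. The cause of these changes was not tested. Signals of Ciita and RT1-Ba at background set no level.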
